A study of Oryza sativa with 2 samples.

Results

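The peaks described here are the binding peaks of OsbHLH002 that lay between the starts of divergent gene pairs in rice, that is, between 2 genes transcribed away from each other. They were chosen by the deposited positions of peaks, summits and gene starts: a peak was taken when it was on exactly 2 gene entries of the list, the genes lay on opposite strands with the minus-strand gene ending before the plus-strand gene began, and the summit lay between those starts. This gave 834 of 12487 listed peaks (6.68%), and 1668 of 14709 listed genes (11.3%) were in such a pair. Both libraries, 1 immunoprecipitation with an antibody against FLAG (the IP) and 1 input, came from transgenic rice plants labelled Osbhlh002-1 gOsbHLH002-3FLAG, a name that the labels do not explain further. No IP from untagged plants was analysed here, and the labels used here state neither age nor tissue nor growth conditions. With 1 IP there was no replicate, so the list is described without a test between conditions, and 95% intervals on shares and medians cover only the number of peaks behind them, not the spread between plants.

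OsbHLH002 belongs to the basic helix-loop-helix (bHLH) factors, in the group related to the Arabidopsis protein ICE1, known from cold response and stomatal development. Factors of this family bind DNA as dimers, typically at short E-box elements. In a head-to-head arrangement 1 stretch of DNA is upstream of both genes, so a bound factor there cannot be assigned to a single gene by position. Plant genomes hold many such pairs, and the stretch between closely spaced starts is called a bidirectional promoter when it drives both genes.

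The arrangement of the pairs was checked within the list. In 776 of the 834 pairs (93.0%) the gene identifiers were neighbours, with a step of 10 or less in their number. Another listed gene overlapped the gap in 9 pairs, and another listed summit fell in the gap in 6. With 1 peak per gene in the list, a further peak in a gap could appear only through a further gene. Peak numbers ran up to 22071, and 9584 of them had no entry. The counts of 9 and 6 therefore do not show how many gaps hold other genes or peaks. The gap, counted as the bases between both starts, had a median of 1668 bp (quartiles 927 and 2226 bp) and ran from 85 to 5394 bp. It was 1000 bp or less in 225 pairs (27.0%) and over 4000 bp in 11. Since each gene was entered through a window reaching 2000 bp from its start in each direction, in a gap over 4000 bp the windows do not meet and the peak has to span the stretch between them. The peaks in these 11 gaps were 391 to 5647 bp wide. In gaps over 2000 bp a narrow peak close to 1 start is out of reach of the window of the other gene.

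Of the remaining 2-gene peaks, 623 were on genes of the same strand, 485 on a divergent pair with the summit not between the starts, 69 on convergent genes and 33 on overlapping genes of opposite strands. The members nearest to the edge of the rule had summits 2 bp from a start, at LOC_Os10g34990 and LOC_Os10g35000 (fold 2.50) and at LOC_Os12g01620 and LOC_Os12g01630 (fold 3.31). Just outside it, the summit at LOC_Os02g43750 and LOC_Os02g43760 lay on the first base of a gene (fold 3.44), and that at LOC_Os02g35160 and LOC_Os02g35170 lay 1 bp inside (fold 2.17).

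Peaks between divergent starts were about as strong as upstream peaks of single genes and somewhat stronger than the list as a whole. Strength is given as the authors' fold enrichment, which divides the IP pileup at the summit by the background there, on a linear scale. The fragments behind each fold were solved from the deposited fold and p. The median fold was 3.31 (quartiles 2.69 and 4.50, 95% interval of the median 3.24 to 3.47). It was 3.13 over all listed peaks, 3.32 over 5895 single-gene peaks with a summit within 2000 bp upstream, 3.13 over the same-strand 2-gene peaks and 2.80 over divergent pairs with the summit not between the starts. The median of the single-gene upstream peaks lay within the interval of 3.24 to 3.47, at a difference of -0.01. The difference from the same-strand peaks was 0.18 (0.11 to 0.35, holding the same-strand median fixed). This second difference was 0.07 (-0.12 to 0.20) with the whole peak between the starts and 0.03 (-0.11 to 0.23) at or above the median fold of the list. No test of these differences was run, because peaks of 1 library are not replicates.

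A fold of 4 or more was reached by 287 of 834 peaks (34.4%, exact binomial 95% interval 31.2 to 37.7%), where 27.5% of all listed peaks reached it and 32.8% of single-gene upstream peaks. The authors' q was 0.05 or less in 784 (94.0%), where it was so in 90.1% of all listed peaks and 93.0% of single-gene upstream peaks. The other 50 had a q of up to 0.297. IP fragments at the summit had a median of 22 (quartiles 17 and 28), and the background a median of 5.30 fragments. Over all listed peaks these medians were 20 and 5.19. Fewer of the peaks between divergent starts were at the genome-wide background of 4.44 fragments, 22.1% against 26.1% of all. It was 26.0% of single-gene upstream peaks, but 19.4% of those with a summit within 250 bp upstream. Peaks between divergent starts were wider, with quartiles of 361 and 750 bp against 316 and 673 bp over all listed peaks. A wide peak reaches 2 gene windows more easily, and the part of this in the width was not tested.

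**Figure D1:**
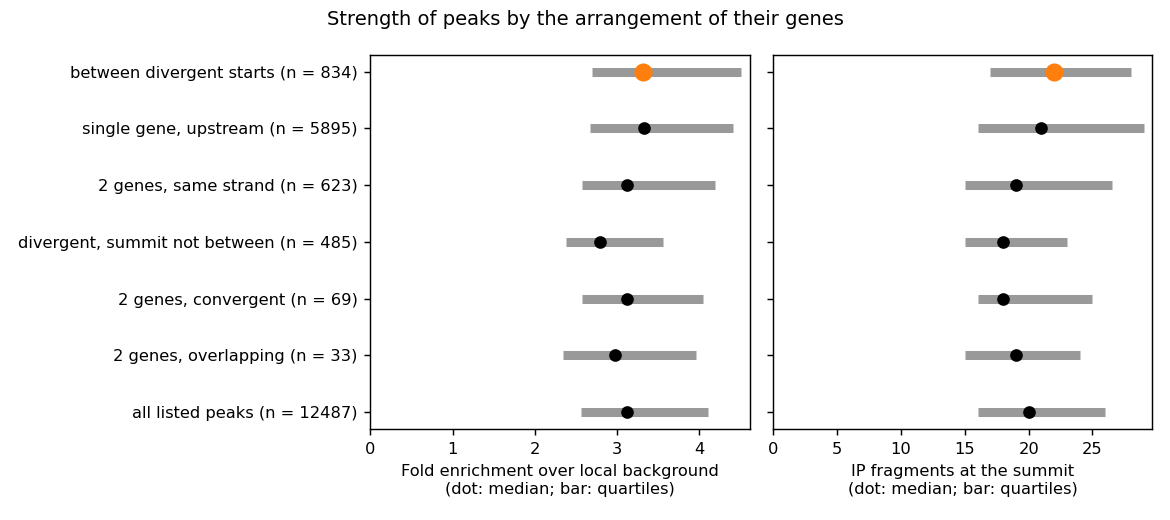
Fold enrichment (left) and IP fragments at the summit (right) by the arrangement of the genes of a peak, as medians (dots) with quartiles (bars). Peaks between divergent starts, in orange, have a median fold of 3.31 and 22 fragments, close to single-gene upstream peaks at 3.32 and 21.

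The pair of median fold was typical of the members in fold only. Its gap and the distance to its nearer start were above their upper quartiles (2226 and 577 bp). Its IP fragments were at their lower quartile. LOC_Os04g43050, described as Dicer, the enzyme class that cuts double-stranded RNA into small RNAs, and LOC_Os04g43060, a cupin enzyme gene, start 3133 bp apart on chromosome 4. Their peak ran from 25489966 to 25490398, with the summit at 25490111, 1108 bp from the Dicer gene start and 2026 bp from the other. It held 17 IP fragments (exact Poisson 95% interval 9.90 to 27.2) over a background of 4.44, which gives a fold of 3.31, at a −log10 q of 3.85. A single peak of this strength therefore rests on few fragments, and all fragment intervals here cover counting error only.

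In gaps of over 500 to 2000 bp fewer summits lay in the central 40% of the gap than its share of the length, which was not so in shorter or longer gaps. The nearer start was a median of 198 bp from the summit and the farther one 1356 bp. In 469 of 834 peaks (56.2%, 52.8 to 59.6%) a start lay within 250 bp, and in 67 (8.03%) both did. The windows set no limit in the 306 pairs 1000 to 2000 bp apart, whose gaps lie wholly within the windows of both genes. There 201 summits (65.7%, 60.1 to 71.0%) were within 250 bp of a start, where 33.6% of the bases of these gaps are that close. Of these summits 112 were at the minus-strand start and 89 at the plus-strand start. Within 100 bp it was 29.1% of summits and 13.4% of bases.

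By gap length, the central 40% of the gap (from 30 to 70% of the way across) held 45.5% of summits in gaps of up to 500 bp, 29.0% in gaps of over 500 to 1000 bp and 16.0% (12.1 to 20.6%) in gaps of over 1000 to 2000 bp. Over all gaps it was 33.8%. In gaps over 2000 bp it was 49.8%, but there the need to reach both windows favours the middle. Single-gene upstream peaks, which have no partner in the list, were also close to their start, with 40.3% within 250 bp. Because each gene carries 1 peak in the list, a pair with separate peaks at each start is not among the members.

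**Figure D2:**
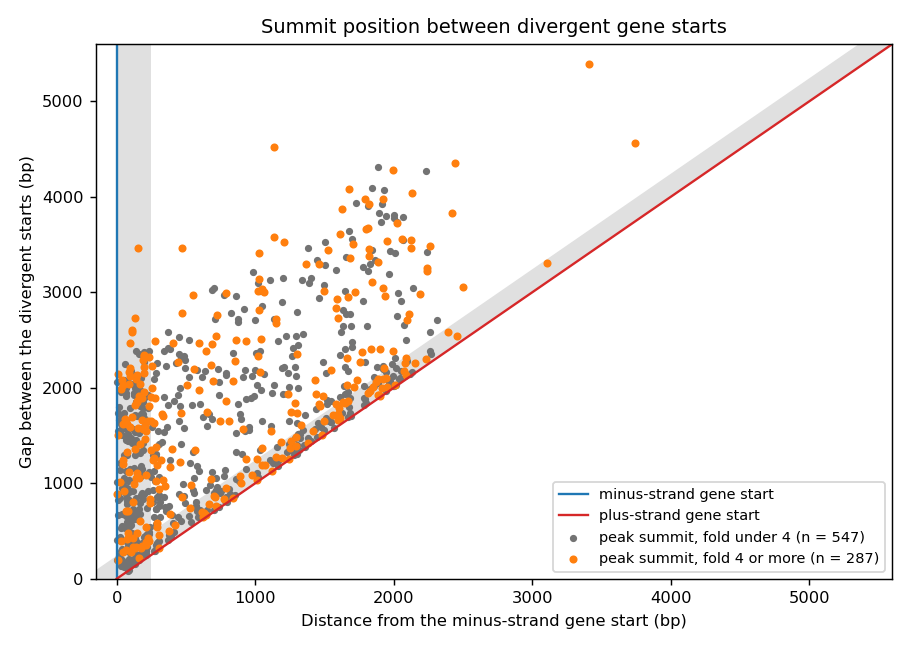
Each point is 1 of 834 summits, by its distance in bp from the minus-strand gene start (horizontal) and the gap in bp between the starts (vertical), with bands of 250 bp next to each start in grey. Summits line the starts in gaps of 1000 to 2000 bp, where 201 of 306 are within 250 bp of a start.

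The 67 peaks within 250 bp of both starts are those in which proximity separates the partners least. Their median fold was 2.96, beside 3.31 over all peaks between divergent starts and 3.13 over all listed peaks. A fold of 4 or more was reached by 14 of the 67, where 34.4% and 27.5% of those peaks reached it. The highest was 12.2. The strongest lay between LOC_Os01g72205, a gene described as a homolog of a bacterial proline synthetase co-transcribed protein, and LOC_Os01g72210, related to early dehydration response proteins. These start 284 bp apart on chromosome 1. Their peak ran from 41868784 to 41870421 with the summit at 41869747, 102 bp from the minus-strand start and 183 bp from the plus-strand start, and held 144 IP fragments (121 to 170) over 10.9. Other such peaks were at LOC_Os03g15920 and the OTU-like cysteine protease gene LOC_Os03g15930 (fold 9.38), at the expressed protein genes LOC_Os07g45195 and LOC_Os07g45210 (fold 7.54), and at the nuclear transport factor gene LOC_Os08g42000 and the nodulin gene LOC_Os08g42010 (fold 6.94). These 3 pairs were named after their values were seen.

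Fold was higher where the starts were farther apart. The median was 3.00 (2.75 to 3.16) in gaps of up to 500 bp, 3.14 (2.97 to 3.45) at over 500 to 1000 bp, 3.40 (3.17 to 3.55) at over 1000 to 2000 bp and 3.55 (3.31 to 3.88) over 2000 bp. A fold of 4 or more was reached by 21.8, 24.2, 35.0 and 42.2% of the peaks in these groups. Across all 834 peaks Spearman's rho between gap and fold was 0.16, and it was 0.13 over the 531 peaks in gaps of 2000 bp or less, where the windows set no limit. These peaks share 1 library, and rho is a description. The background moved the other way, with a median of 5.66 fragments in gaps of up to 500 bp and 5.19 in gaps over 2000 bp, and the share of pairs with a transposon gene went from 4.95 to 24.4%. The summit also lay closer to a start in short gaps, with a median of 79 bp up to 500 bp and 758 bp over 2000 bp. Summits within 100 bp of a start had a median fold of 3.07, and of 3.18 in single-gene upstream peaks. At 101 to 250 bp these medians were 3.50 and 3.49, and at over 1000 bp 3.71 and 3.32. The part of any of these in the fold was not tested.

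**Figure D3:**
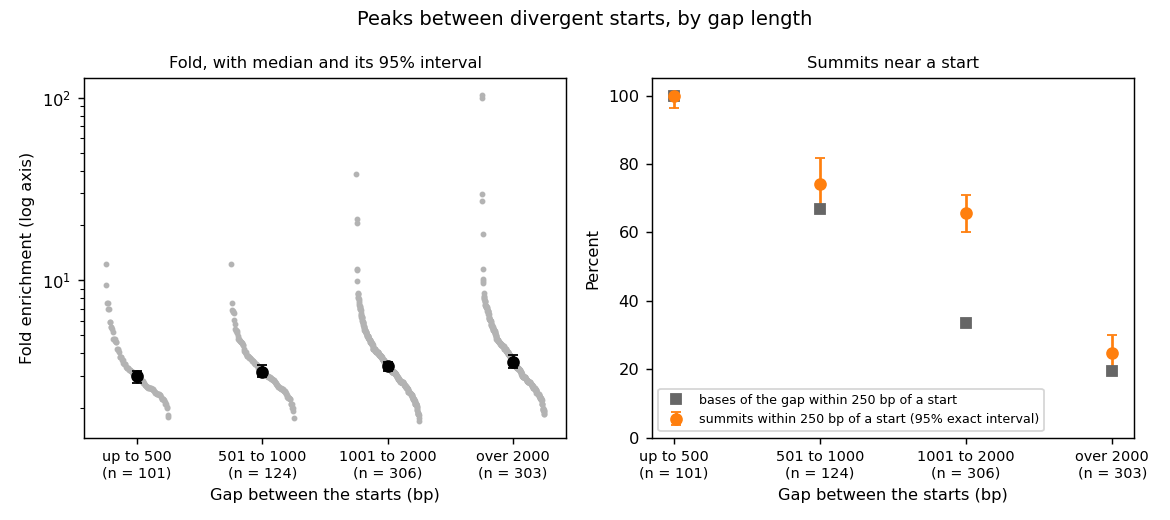
Left, the fold of each peak (grey, log axis) by gap length in bp, with the median and its 95% interval in black. Right, the percent of summits within 250 bp of a start (orange, exact 95% interval) beside the percent of gap bases that close (grey). The median fold goes from 3.00 to 3.55, and at over 1000 to 2000 bp 65.7% of summits but 33.6% of bases are that close.

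The closest starts carried weak peaks. LOC_Os03g55330, an ankyrin repeat gene, and LOC_Os03g55340, a pentatricopeptide gene, start 85 bp apart, with a fold of 2.23 from 17 fragments over 7.08. LOC_Os01g08960, a phosducin-like gene, and LOC_Os01g08970, for the SSRP1 subunit of the histone chaperone FACT, start 91 bp apart, with a fold of 1.82 at a −log10 q of 0.82. The tubulin folding cofactor B gene LOC_Os04g59560 and LOC_Os04g59570 (126 bp apart) had a fold of 2.21. The membrane protein gene LOC_Os05g33290 and the tat pathway signal gene LOC_Os05g33300 (139 bp) had 2.29, and LOC_Os02g34950 and the pentatricopeptide gene LOC_Os02g34960 (144 bp) had 2.90. All of these 5 folds were below the median of the divergent pairs, and that of the FACT pair did not reach a q of 0.05.

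Among pairs of 1 gene with a described function and 1 without, the summit lay nearer to the described gene more often. Described here means any description other than expressed protein, hypothetical protein or transposon. Of 448 such mixed pairs, 307 summits (68.5%, 64.0 to 72.8%) were nearer the described gene. It was 222 of 338 (65.7%) where the partner was an expressed or hypothetical protein gene and 85 of 110 (77.3%, 68.3 to 84.7%) where it was a transposon gene. The share was above an equal split, interval included, in short gaps (67.5% of 126 pairs at 1000 bp or less), at over 1000 to 2000 bp (73.8% of 164) and over 2000 bp (63.9% of 158). In 42 pairs of an expressed or hypothetical protein gene and a transposon gene, 30 summits (71.4%, 55.4 to 84.3%) lay nearer the former. This comparison was chosen after the files were seen.

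The summit was nearer the minus-strand start in 457 of 834 pairs (54.8%, 51.3 to 58.2%) and nearer the plus-strand start in 45.2%. The latter share was 48.2% (44.5 to 51.8%) by peak centre and 46.6% (42.1 to 51.1%) when peaks below the median fold of the list were left out, and both intervals hold an equal split. In mixed pairs it was nearer the described gene in 168 of 226 pairs (74.3%) with that gene on the minus strand and in 139 of 222 (62.6%, 55.9 to 69.0%) with it on the plus strand. A shift of the same sense was seen outside the pairs: of single-gene upstream summits, 42.9% (41.0 to 44.8%) were within 250 bp of the start on the minus strand and 37.9% (36.2 to 39.7%) on the plus strand.

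**Figure D4:**
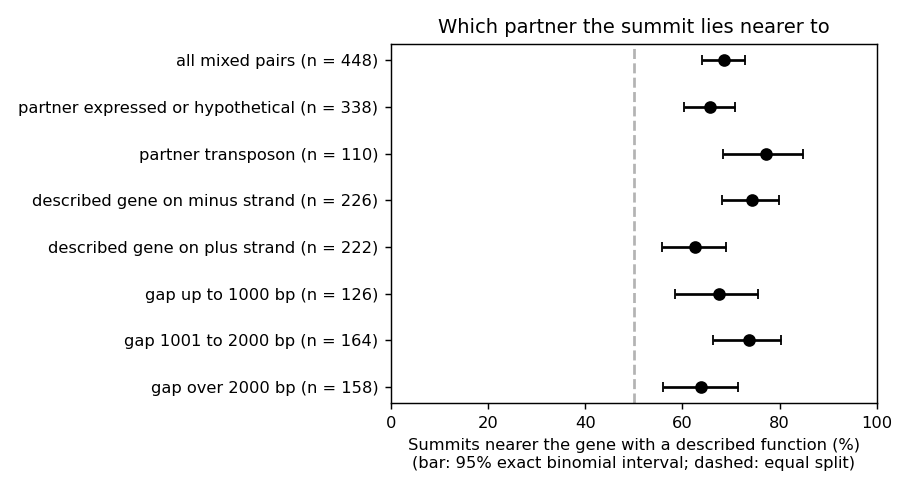
Percent of summits nearer the gene with a described function in pairs of 1 such gene and 1 expressed, hypothetical or transposon gene, with exact binomial 95% intervals and a dashed line at an equal split. All 8 groups lie above the line, from 62.6 to 77.3%.

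Of the 12 strongest peaks between divergent starts, all but those at LOC_Os02g18550 and LOC_Os08g01620 were 1638 bp or wider. The highest fold was at LOC_Os05g19100, a retrotransposon gene, and LOC_Os05g19110, an expressed protein gene, 4566 bp apart on chromosome 5. The peak, from 11084088 to 11089734, had a fold of 104 and held 595 IP fragments (548 to 645) over 4.72, with the summit 3740 bp from the retrotransposon start. Next came LOC_Os10g06080, a hypothetical protein gene, and OsWAK104 (LOC_Os10g06090), a wall-associated receptor kinase gene, with a fold of 100.008 and 543 fragments, in the longest gap of all. Its summit was 1984 bp upstream of OsWAK104 and 3411 bp from its partner. These peaks were 5647 and 4860 bp wide, and neither summit was near a start.

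The third strongest peak was narrow. It lay 62 bp upstream of LOC_Os02g18550, a gene for the small-subunit ribosomal protein S3a, and 1607 bp from the retrotransposon gene LOC_Os02g18560. It was 653 bp wide with a fold of 38.3 and 232 fragments (203 to 264) over 5.09. LOC_Os03g10710 and LOC_Os03g10730, both expressed protein genes 4519 bp apart, followed with a fold of 29.7.

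The next peaks by fold were at DET1, POLD4A and a BES1/BZR1 homolog. DET1, whose Arabidopsis counterpart holds back light development in the dark, is LOC_Os01g01484 on chromosome 1. Its peak ran from 255215 to 257790 with the summit at 257013, 135 bp upstream of DET1 and 2594 bp from the expressed protein gene LOC_Os01g01500, and had a fold of 27.2 from 244 fragments (214 to 277) over 8.02. At POLD4A (LOC_Os09g34850), for a subunit of DNA polymerase delta, and the hydrolase gene LOC_Os09g34860 the fold was 21.8, with the summit 128 bp from the hydrolase start and 1068 bp from POLD4A. The BES1/BZR1 homolog LOC_Os06g35900, of a factor family that acts in brassinosteroid responses, had a summit 245 bp upstream and a fold of 20.6 (146 fragments over 6.14). Its partner LOC_Os06g35890, an expressed protein gene, started 1186 bp from the summit.

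The remaining peaks of the 12 strongest had folds of 11.6 to 18.0. LOC_Os05g01970, an epimerase/dehydratase gene, and LOC_Os05g01960 had 18.0, with the summit 1018 bp from the former. The receptor kinase genes LOC_Os04g44900 and LOC_Os04g44910, 834 bp apart, had 12.3, with the summit 240 bp from the lectin-like kinase gene on the minus strand. The heavy metal transport gene LOC_Os04g57200 had 11.6 with its summit 205 bp upstream, its partner being the ubiquitin hydrolase gene LOC_Os04g57190. LOC_Os08g01610, a DUF250 gene, and LOC_Os08g01620, for the Shwachman-Bodian-Diamond protein that acts in ribosome maturation, also had 11.6. Of all 834 peaks, 10 had a fold of 12 or more, the weakest of them at rank 107 among all 12487 listed peaks. A width of 2000 bp or more was seen in 28 (3.36%), against 1.91% of all listed peaks and 4.33% of same-strand 2-gene peaks.

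**Figure D5:**
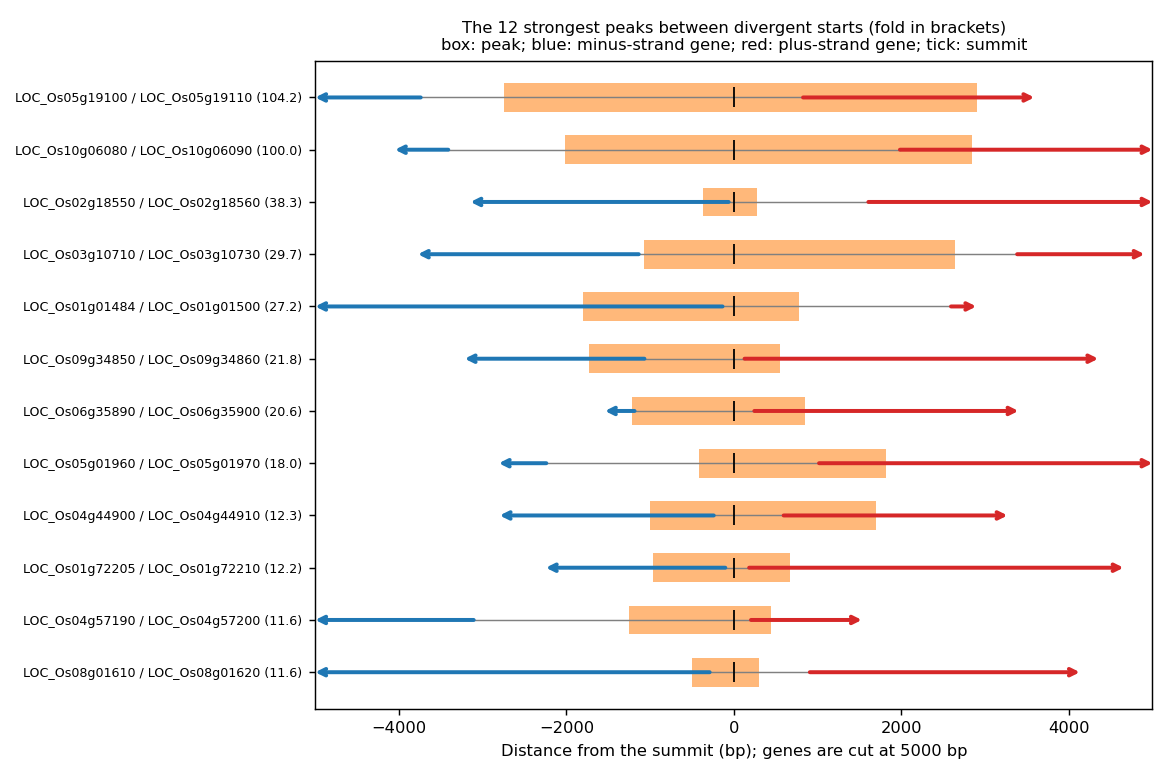
The 12 strongest peaks between divergent starts, drawn to scale as distance in bp from the summit, with peaks as boxes, minus-strand genes in blue and plus-strand genes in red, each cut at 5000 bp. The peaks with folds of 104, 100.008 and 29.7 have summits 827 bp or more from both starts, while that with 38.3 lies 62 bp from a start.

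The weakest peaks, picked by lowest fold, had high local backgrounds, by which the fold is itself divided. The lowest fold was 1.69 at the FUR1 gene LOC_Os07g37130 and LOC_Os07g37140 (19 fragments over 10.9, −log10 q 0.59). LOC_Os02g54730, an amino acid transporter gene, and LOC_Os07g23800, a ribosomal protein S5 gene, each had a fold of 1.76 from 24 fragments over 13.2. None of these 3 peaks reached a q of 0.05.

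Partners rarely shared a keyword class. Genes were sorted by keywords in their descriptions into 33 classes, a gene being allowed in several. Of the 1668 genes in pairs, 515 (30.9%) were in no class and so could not share one. Both partners shared a class, transposons and genes without a described function apart, in 16 of 834 pairs, or in 16 of 258 pairs (3.59 to 9.88%) with a described function on both sides. On the same strand it was 16 of 128 such pairs (12.5%, 7.32 to 19.5%). Descriptions were identical in 4 of the 258 divergent pairs and in 22 of the 128 same-strand pairs.

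The strongest pairs of 1 class, after the receptor kinases above, were chaperone genes. A DnaJ gene (LOC_Os02g54130) and an hsp20 gene (LOC_Os02g54140), both of protein folding under stress, start 3873 bp apart and had a fold of 9.67 from 54 fragments over 4.69, with the summit 1628 and 2246 bp from their starts. The glycosyl hydrolase genes LOC_Os08g40680 and LOC_Os08g40690 had 5.59. Genes for chloroplast enzymes, LOC_Os06g04270 for transketolase and LOC_Os06g04280 for the 3-phosphoshikimate 1-carboxyvinyltransferase of aromatic amino acid synthesis, had 3.81, with the summit 2001 and 1812 bp away. Transketolase makes a sugar phosphate that enters that pathway.

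The other pairs of 1 class had modest peaks, and only those among the 12 strongest of the 16 are named. A protein kinase and a thymidine kinase gene (LOC_Os03g02190 and LOC_Os03g02200) had 3.86, and zinc finger genes LOC_Os05g41520 and LOC_Os05g41530 had 3.31. Receptor kinase genes LOC_Os01g02290 and LOC_Os01g02300 had a fold of 3.02 and kinase genes LOC_Os01g02390 and LOC_Os01g02400 had 3.13. Genes of the mitochondrial import translocase, LOC_Os05g02050 and LOC_Os05g02060 (Tim17), had 2.79, F-box genes LOC_Os11g09580 and LOC_Os11g09590 had 2.76, and abscisic stress-ripening genes LOC_Os01g72900 and LOC_Os01g72910 had 2.55. The auxin-responsive genes LOC_Os09g37495 and OsSAUR55 (LOC_Os09g37500) had 2.27 with the summit almost midway, 1065 and 1078 bp from the starts, and a −log10 q of 1.22, short of a q of 0.05.

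Some kinds of gene were in divergent pairs more often than the 11.3% of all listed genes. Transposon genes were, with 172 of 949 (18.1%, 15.7 to 20.7%), as were ribosomal protein genes with 23 of 119 (19.3%, 12.7 to 27.6%), bZIP factor genes with 8 of 27 (29.6%, 13.8 to 50.2%) and genes of DNA repair and replication with 9 of 35 (25.7%, 12.5 to 43.3%). For pentatricopeptide genes, for RNA-binding proteins of organelles, it was 16 of 102 (15.7%, 9.24 to 24.2%) and for chaperone genes 12 of 79 (15.2%), and both intervals hold 11.3%. At the other end, 2 of 54 bHLH genes were in such a pair (0.452 to 12.7%, which holds 11.3%). It was 0 of 42 homeobox genes (interval up to 8.41%) and 0 of 40 lignin and phenylpropanoid genes (up to 8.81%). Cell wall and glycosyltransferase genes were at 21 of 280 (4.70 to 11.2%) and transporter genes at 32 of 401 (7.98%, 5.52 to 11.1%). How often each kind lies in divergent pairs of the genome was not analysed here, so these shares say nothing of a preference of the factor. No test was run over the classes.

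Among the MYB, NAC, bHLH, WRKY, bZIP and AP2/ERF genes, the highest folds were at a NAC and an AP2 gene. LOC_Os05g35170, a no apical meristem (NAC) gene, had a fold of 8.54 from 64 fragments (49.3 to 81.7) over 6.61, with the summit 249 bp upstream and a retrotransposon gene, LOC_Os05g35180, on the other side. LOC_Os01g07120, an AP2 domain gene, shared a fold of 7.75 with the BRCA2 repeat gene LOC_Os01g07110. The summit was 200 bp from the BRCA2 repeat gene, of a family of DNA repair proteins, and 2021 bp from the AP2 gene. Of the 8 AP2/ERF genes in pairs, 4 were the nearer partner and 2 had the summit within 250 bp. Of 8 bZIP genes, 6 were the nearer partner. Their folds ran from 2.30 to 5.27, with the highest at LOC_Os02g16680, 5 bp from the summit. The bHLH genes, of the family of OsbHLH002 itself, were LOC_Os01g39330 (fold 7.29, summit 171 bp upstream) and LOC_Os01g01870 (fold 2.90, 11 bp). WRKY111 (LOC_Os05g50700), of a plant factor family known from defence responses, had a fold of 7.69 with the summit 68 bp upstream and a pentatricopeptide gene (LOC_Os05g50690) as partner. The bZIP, bHLH and WRKY genes were named after their values were seen.

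Of 14 listed genes of interest (OsbHLH002, OSH1, DREB1, monolignol, cellulose synthase and wall MYB genes, known beforehand to carry a peak), 1 was in a divergent pair, where 11.3% of all listed genes were. It was CESA2 (LOC_Os03g59340), a cellulose synthase gene on chromosome 3, whose summit at 33786551 lay 84 bp upstream of it and 1358 bp from the anthocyanin glucosyltransferase gene LOC_Os03g59350. The peak had a fold of 3.96 and held 31 fragments (21.1 to 44.0) over 7.08. OSH1 and OsbHLH002 were on single-gene peaks, with folds of 3.39 and 1.06. The fold at OsbHLH002 was the lowest of all listed peaks. Glycosyl hydrolase family 17 genes, of the family of beta-glucan-cutting enzymes, led the wall class, with LOC_Os01g64170 at 6.31 (partner a CACTA transposon gene, LOC_Os01g64160) and LOC_Os09g36280 at 6.15 (partner the phosphatase gene LOC_Os09g36290). All 21 wall genes had a q of 0.05 or less, where 94.0% of the peaks between divergent starts did. A fold of 4 or more was seen for 8 of them, where 34.4% of those peaks reached it. Genes are counted here, and LOC_Os08g40680 and LOC_Os08g40690, both among the 8, share 1 peak.

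Hormone genes were in divergent pairs in 12 of 149 cases (8.05%, 4.23 to 13.6%, which holds 11.3%). Of these 12, 6 had a fold of 4 or more, beside 34.4% of the peaks between divergent starts and 27.5% of all listed peaks. Genes are counted here too. LOC_Os01g72900 and LOC_Os01g72910 share 1 peak, as do LOC_Os09g37495 and LOC_Os09g37500, and both peaks had a fold below 4. LOC_Os03g57640, which the list describes as gibberellin receptor GID1L2, had 6.62 with the summit 192 bp upstream and 35 fragments over 4.44. Its partner LOC_Os03g57630 was a hypothetical protein gene. GASR3 (LOC_Os03g55290), a gibberellin-regulated gene, had 5.72, but its summit was 2497 bp away and 561 bp from its partner LOC_Os03g55300.

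Ribosomal and chromatin genes had folds near the median of the pairs. After LOC_Os02g18550, the highest of 23 ribosomal protein genes was LOC_Os01g62210, for the 50S protein L17, with 6.03. Their median fold was 3.13, beside 3.31 over all pairs, and 5 had a fold of 4 or more, beside 34.4% of all pairs. Of 11 histone and chromatin genes, 8 were the nearer partner, with a median fold of 3.22. A core histone gene, LOC_Os01g05900, shared a fold of 5.83 with the receptor kinase gene LOC_Os01g05960, whose identifier is not its neighbour. LOC_Os03g63530, a histone-like transcription factor gene, shared 5.70 with LOC_Os03g63520, a Der1-like gene of protein quality control, 33 bp from the summit.

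Pairs with a transposon gene were 162 of 834 (19.4%, 16.8 to 22.3%), against 80 of 623 (12.8%, 10.3 to 15.7%) same-strand peaks. Their folds were like the others: the median was 3.46 for 110 pairs with a described gene, 3.38 for 42 with an expressed or hypothetical protein gene and 3.45 for 10 pairs of transposon genes. Pairs with a described function on both sides had 3.45 (n = 258), pairs of a described and an expressed or hypothetical protein gene 3.23 (n = 338), and pairs of expressed or hypothetical protein genes only 3.55 (n = 76). The intervals of these medians overlapped. The longest gaps included LOC_Os05g39920, a retrotransposon gene, and LOC_Os05g39930, described as spotted leaf 11, a ubiquitin ligase known in rice from cell death control, 4357 bp apart with a fold of 5.24, and LOC_Os04g55430 and the Cf-4A gene LOC_Os04g55440, 4309 bp apart with 1.99.

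The pairs were spread over all 12 chromosomes in proportion to the list. They made up between 4.89% (chromosome 12) and 7.75% (chromosome 9) of the listed peaks of a chromosome, and chromosomes 1 and 3 held the most, 132 and 126. The median fold per chromosome ran from 3.08 on chromosome 10 to 3.52 on chromosome 1.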

How the data were processed

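One IP library and 1 input library were described by the labels, and the input was used here only as part of the deposited background. Per the labels' protocols, tissue was fixed with 1% formaldehyde for 15 min and sonicated to 300 to 500 bp. MACS2 2.2.7.1, Bowtie2 2.4.2, Picard and SAMtools are named in the submitters' processing notes. Genome build, thresholds and the rule that left 1 peak per gene: not given in the sources used here. Gene descriptions are those of the list, without the words putative and expressed where it appends them. Gene coordinates and peak ends are as deposited, and 1 base was added to peak starts and summits so that all count from 1. The authors deposited 1 peak list joined to genes, with the fold as a linear ratio, p and q as −log10, and a score that was 10 times the −log10 p without decimals in 14706 of 14709 entries.

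IP fragments and background were solved from the fold, taken as (pileup + 1) / (background + 1), and the Poisson p. Exactly 1 whole number of fragments solved both for 12486 of 12487 peaks, and the solver recovered 500 of 500 simulated peaks. Library totals were not used here. Python 3.11.15, pandas 2.3.3 and SciPy 1.17.1 were used.

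The members, lists and keyword classes were chosen with earlier results of these data known, and the hormone and DNA repair keywords were corrected after their matches were seen. Named pairs were the 12 of highest fold, the 5 shortest and 5 longest gaps, up to 12 pairs of 1 class, the 3 of lowest fold, the 3 with most fragments, the 2 strongest of selected classes, pairs with a listed gene and the pair of median fold. None of the identifiers matched the RefSeq gene table (0 of 39387 entries), and the planned motif counts were not run.

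No replicate exists, so no test was run. Shares have exact binomial (Clopper-Pearson) 95% intervals, fragment counts exact Poisson ones, and medians order-statistic ones. The labels name no molecular identifiers for the amplified fragments, and intervals cover counting error only.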

Additional observations from a re-analysis of the deposited data

How the results depend on the processing

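No paired analysis was possible because there was 1 IP and 1 input library. Each alternative changed 1 choice. Of 216 recomputed values 42 moved, that is, beyond the interval of the reported share or median or, for the number of pairs, by over 1.5 times. The other 174 did not. Requiring the whole peak between the starts, which by construction keeps summits off the starts, left 337 pairs. Their median fold was 3.20 (-0.13 against single-gene upstream and 0.07 against same-strand peaks), 91.1% had a q of 0.05 or less and the median gap was 2217 bp. Summits within 250 bp of a start fell to 19.9%, of both starts to 0.593%, and in gaps of 1000 to 2000 bp to 34.3%. The described gene was nearer in 60.9% of mixed pairs. In gaps of over 500 to 1000, over 1000 to 2000 and over 2000 bp the median folds were 2.93, 3.13 and 3.30, and transposon, uncharacterised and RNA processing genes made up 13.5, 34.3 and 0.890% of genes. The peak centre in place of the summit gave a median gap of 1749 bp, 49.0% within 250 bp of a start and 53.9% in gaps of 1000 to 2000 bp. Keeping peaks at or above the median fold left 483 pairs with a median fold of 4.21 (0.03 above same-strand peaks), a gap of 1747 bp, 100% with a q of 0.05 or less, 5.80% near both starts, and median folds of 4.05, 3.86, 4.11 and 4.42 by gap. A q of 0.01 or less gave 3.65, with 3.21, 3.68 and 3.97 in gaps up to 500, over 1000 to 2000 and over 2000 bp, and 100% with a q of 0.05 or less, as did a q of 0.05 or less by construction. Fragments in place of fold gave a median of 22, 1 above single-gene upstream peaks. Distances of 100 and 500 bp in place of 250 bp gave 27.3 and 72.8%, and 29.1% for 100 bp in gaps of 1000 to 2000 bp. Leaving out pairs with a transposon gene gave 0% transposon and 36.5% uncharacterised genes. Only the transposon, uncharacterised, kinase, ribosomal and RNA processing classes were recomputed, and motif counts were not run. Few fragments per summit limit what single peaks show.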
